A study of Mus musculus with 4 samples.

Results

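The ID genes and BMP ligands described here are Id1, Id2, Id3, Id4, Bambi, Atoh8, Bmp2, Bmp4 and Bmp6, picked out by gene symbol. All 9 were found among the 54838 genes in the files. Their RNA was sequenced in Hepa1-6 cells, a line from a mouse hepatocellular carcinoma. The NC group holds 2 libraries of cells labelled wild type for Acvr2a, and the KO group holds 2 libraries labelled as Acvr2a knockout; no treatment or time is given for either group. The design text describes the knockout cells as subclones without saying whether the KO libraries come from separate subclones. P-values therefore measure the spread between these libraries, which may be technical.

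Bone morphogenetic proteins (BMPs) are secreted ligands that bind paired type I and type II receptors, and ACVR2A is a type II receptor shared by activins and several BMPs. The type I receptor then phosphorylates SMAD1, SMAD5 or SMAD9, which enter the nucleus with SMAD4 and switch on early target genes, the ID genes foremost. ID proteins carry a helix-loop-helix but no DNA-binding region, so they pair with basic helix-loop-helix factors such as the E proteins and keep them off DNA. In liver, BMP6 and BMP2 from endothelial cells act on hepatocytes to set the iron hormone hepcidin.

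The 4 ID genes share the helix-loop-helix, and the matching coding DNA is shown because it bears on whether reads of one ID gene could be counted for another. The Id1 stretch of 126 bases below is the ungapped in-frame one most like its best matches in Id2, Id3 and Id4 together. The Id2, Id3 and Id4 sequences are those matches, and their likeness to each other was not scored in the choice. All are printed 5′ to 3′ on the coding strand (GENCODE M21 transcripts, GRCm38), with capitals at the 71 bases (56.3%) that all 4 share. Each lies within 1 exon: Id1 at chr2:152736512-152736637 (plus strand), Id2 at chr12:25095783-25095908 (minus), Id3 at chr4:136143996-136144121 (plus) and Id4 at chr13:48261687-48261812 (plus).
Id1: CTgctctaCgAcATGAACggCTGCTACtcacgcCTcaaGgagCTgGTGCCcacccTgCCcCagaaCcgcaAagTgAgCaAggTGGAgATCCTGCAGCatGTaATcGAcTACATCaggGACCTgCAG
Id2: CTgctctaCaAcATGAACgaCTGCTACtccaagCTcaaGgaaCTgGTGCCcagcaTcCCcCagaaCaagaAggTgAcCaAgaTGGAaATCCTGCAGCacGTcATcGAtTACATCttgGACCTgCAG
Id3: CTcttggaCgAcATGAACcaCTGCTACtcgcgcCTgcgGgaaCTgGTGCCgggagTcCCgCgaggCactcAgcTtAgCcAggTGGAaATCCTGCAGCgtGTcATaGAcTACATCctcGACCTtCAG
Id4: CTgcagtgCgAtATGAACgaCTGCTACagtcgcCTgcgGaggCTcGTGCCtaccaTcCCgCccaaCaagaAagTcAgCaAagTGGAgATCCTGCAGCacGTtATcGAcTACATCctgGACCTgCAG

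In this stretch Id1 and Id2 were the closest pair, with 82.5% of bases identical, and Id1 and Id3, like Id3 and Id4, had 69.8%. The longest identical run in any pair was 17 bases, between Id1 and Id4. No run of 50 bases in the transcripts of Id1, Id3, Bambi, Atoh8 or Bmp2 occurred in a transcript of another gene. Of the 50-base runs of Id2, 0.329% were shared, with Gm6175. The shared runs of Id4 (2.08%) and Bmp6 (4.55%) lay opposite to overlapping genes (A330033J07Rik and Gm49291, and Txndc5). Those of Bmp4 (2.18%) occurred in transcripts of 511 other genes, and Bmp4 overlaps exons of Gm15217 on the other strand. The libraries were made with a directional kit, but strand use in counting is not given in the sources used here. Whether reads of the overlapping genes were told apart by strand is thus not known. All 36 expected counts of the 9 genes (9 genes in 4 libraries) were whole numbers, against 82.4% of the values of all genes tested. The sets are unlike, because the 36 include Id4, Bmp2 and Bmp6, which were not tested and had at most 3 counts in a library.

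The libraries held between 11597923 and 13910582 counts. Levels per gene length are the deposited TPM (transcript abundance scaled for gene length and library size), and comparisons between groups use CPM (counts scaled to the TMM-adjusted library size, with no length scaling) and edgeR's quasi-likelihood test over 12510 genes that passed the filter on low counts. Of these, 37.9% had an adjusted p (Benjamini-Hochberg) under 0.05, 19.7% higher and 18.2% lower in KO. The targeted gene did not separate the groups. Reads of Acvr2a numbered 81 and 108 in the NC libraries and 75 and 97 in the KO libraries (log2 fold change -0.21, SE 0.20, adjusted p = 0.433), and its exons overlap Orc4 on the other strand. The files do not show which part of the gene was targeted, so its RNA does not check the labels, and group names follow them. Hepatocyte and hepatoma markers were uneven: Apoe, Alb, Trf, Afp, Hnf4a, Krt8 and Krt18 were abundant. Apoa1 had only 17 to 39 counts in a library, Ttr at most 1 and Serpina1a at most 5.

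Among the 9 genes, 6 came through the filter, which asks for 0.757 CPM in at least 2 libraries. Of these, 5 reached that level in both groups: Id1 was higher in KO, and Id2, Id3, Atoh8 and Bmp4 did not pass the test, against the 37.9% called of all genes tested. Bambi also had an adjusted p under 0.05, but only its KO libraries both reached the filter level. A gene kept only through the group where it is high is more apt to differ, so Bambi is described and not counted as support. Id4, Bmp2 and Bmp6 were under the filter. In 3 of the 5 (Id1, Id2 and Id3) both KO libraries lay above both NC libraries in CPM. The groups did not overlap in 69.4% of all genes tested, and 34.8% were without overlap and higher in KO.

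The plot of TPM by library shows how far apart the levels of these genes lie. In NC the order was Id2 (295 ± 22.6 TPM, SD, n = 2), Id1 (259 ± 20.1), Id3 (81.9 ± 4.50), Bmp4 (35.2 ± 6.67) and Atoh8 (24.1 ± 0.0). Bambi, Bmp2 and Bmp6 were at or under 0.19 TPM in each NC library and Id4 was at 0. In KO, Id1 stood above Id2, at 374 ± 24.2 against 330 ± 16.3 TPM. Within these orders 2 neighbouring pairs were close: the highest NC library of Id1 (273) and the lowest of Id2 (279) nearly met, as did the lowest KO library of Bmp4 (25.8) and the highest of Atoh8 (25.6).

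**Figure D1:**
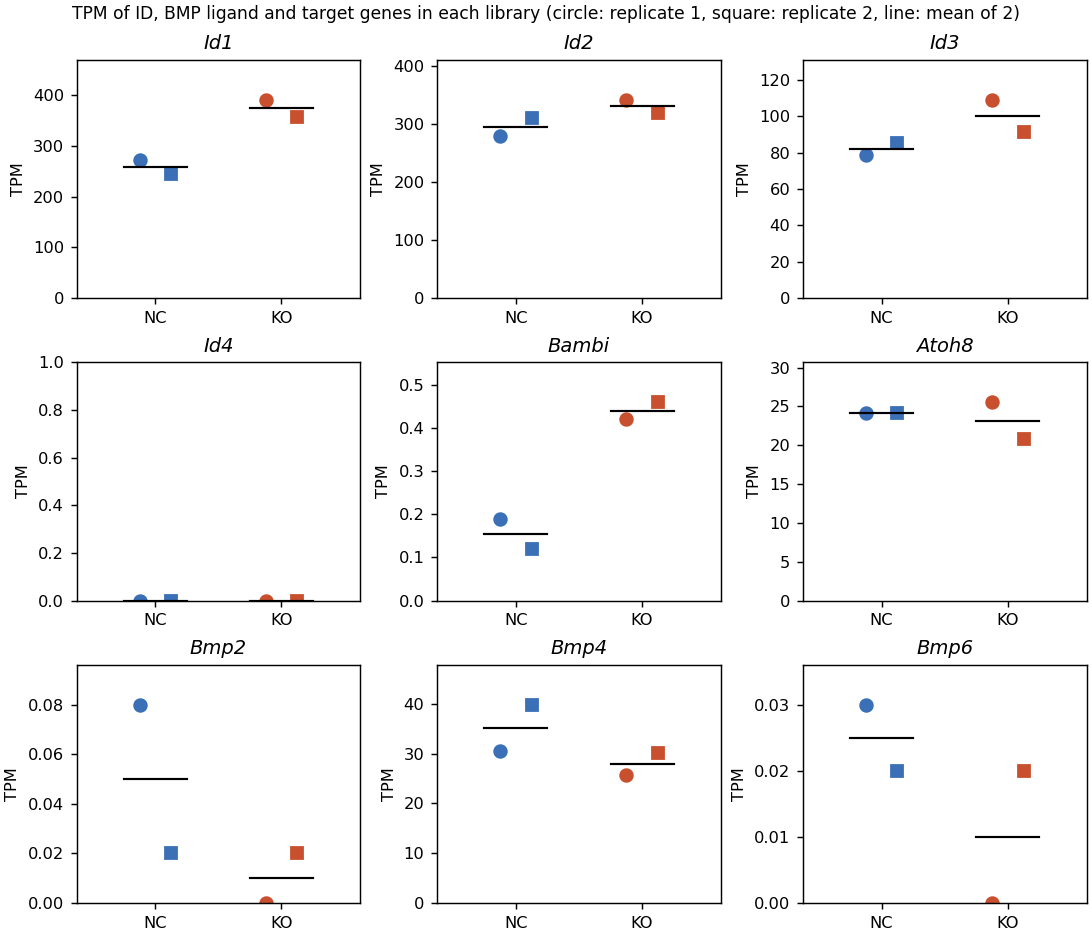
TPM (linear axis from 0, own scale in each panel) of the 9 genes in NC (blue) and KO (red), with circles for replicate 1, squares for replicate 2 and a line at the mean of 2. Id1 and Bambi have both KO libraries well above both NC libraries, and Id4 is at 0 in all 4.

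Id1, the ID gene most used as a readout of BMP signalling, was higher in KO. The gene (ENSMUSG00000042745.9) lies on chromosome 2 at 152736251 to 152737410 (GRCm38, plus strand). Its counts were 2089 and 2151 for the NC pair and 3127 and 3062 for the KO pair, or 184, 155, 237 and 227 CPM. Both KO libraries lay above both NC libraries, and the NC pair differed more between themselves than the KO pair did. The mean went from 170 ± 20.1 to 232 ± 7.54 CPM (SD, n = 2), a 1.37-fold difference. The log2 fold change was 0.45 (SE 0.10, 95% interval 0.26 to 0.65, edgeR quasi-likelihood, adjusted p = 0.000476). It held its call in 14 of 15 alternatives, the exception being limma on TPM without a filter (adjusted p = 0.105), which called 0 of 20640 genes.

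Id2 (ENSMUSG00000020644.9; chromosome 12, 25093799 to 25097140, minus strand) had the highest CPM of the 9 genes in every library. Its values were 264 and 279 CPM in NC and 294 and 287 CPM in KO. The groups did not overlap, but the gap between NC 2 and KO 2 was small. On the log2 scale the fold change was 0.096 (SE 0.09, 95% interval -0.088 to 0.28, adjusted p = 0.424), so an increase beyond 0.28 lay outside the interval.

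Id3 (ENSMUSG00000007872.3; chromosome 4, 136143497 to 136145755, plus strand) was lower in level. It stood at 71.4 and 75.4 CPM in NC and at 83.9 and 78.5 CPM in KO, again without overlap. Its log2 fold change was 0.15 (SE 0.09, 95% interval -0.049 to 0.34, adjusted p = 0.235). On the log2(TPM + 1) scale it was 0.29 and still short of the threshold (limma, adjusted p = 0.136). The deposited length of Id3 ran from 1135 bases in KO 1 to 1233 in NC 2. Whether Id1 moved more than Id2 or Id3 was not tested.

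The make-up of the ID family followed from these values. Summed over the ID genes, the level was 631 and 641 TPM for the NC pair and 842 and 767 TPM for the KO pair. The sum was not tested, and TPM ran higher in KO than the counts did. Over all genes tested the median log2 difference was 0.060 on log2(TPM + 1), against -0.0037 in the main fit. Id1 made up 43.4% and 38.2% of that sum in NC and 46.5% and 46.6% in KO, while Id2 made up 44.2% and 48.5% in NC and 40.5% and 41.5% in KO. Id3 kept between 11.95% and 13.3% in all 4 libraries. The ratio of Id1 to Id2 in TPM was 0.982 and 0.789 in NC and 1.15 and 1.12 in KO, so Id2 led in both NC libraries and Id1 in both KO libraries.

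Id4 (ENSMUSG00000021379.2; chromosome 13, 48261228 to 48266026, plus strand) had 0 counts in all 4 libraries. A count of 0 allows at most 0.216 to 0.259 CPM of the raw library totals, taking 3 counts as the limit (counting error only). Id4 is thus not detectable at this depth in either group.

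Bambi encodes a membrane protein that resembles a type I receptor without its kinase and dampens BMP and TGF-beta signals. The gene (ENSMUSG00000024232.2) lies on chromosome 18 at 3507923 to 3516404 (plus strand). Its reads were few, with 10 and 7 in the NC libraries against 23 and 27 in the KO libraries. The KO libraries stood above the NC libraries, at 1.75 and 1.999 CPM against 0.880 and 0.505 CPM. Exact (Clopper-Pearson) 95% intervals for the NC libraries were 0.413 to 1.59 and 0.202 to 1.04 CPM of the raw totals, and for the KO libraries 1.13 to 2.67 and 1.32 to 2.91, covering counting error only. The interval of NC 1 overlaps those of both KO libraries.

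The log2 fold change of Bambi was 1.45 (SE 0.48, 95% interval 0.47 to 2.43, edgeR quasi-likelihood, adjusted p = 0.0136). The call was lost with DESeq2 (adjusted p = 0.116), in each TPM fit (0.108 to 0.154), without NC 2 (log2 fold change 1.08, adjusted p = 0.163), without KO 1 (1.54, 0.0506) and without KO 2 (1.35, 0.116). On the log2(TPM + 1) scale the difference was 0.32, where the pseudocount exceeds the level of the gene.

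Atoh8, a basic helix-loop-helix factor induced by BMP signals in hepatocytes, overlapped between groups. The gene (ENSMUSG00000037621.8) lies on chromosome 6 at 72206177 to 72235577 (minus strand). It had 46.1 and 44.7 CPM in NC and 45.7 and 39.2 CPM in KO, so 1 KO library sat among the NC values and the other below. This gave a log2 fold change of -0.097 (SE 0.11, 95% interval -0.31 to 0.12, adjusted p = 0.498). Without KO 1 it was -0.21 and without KO 2 it reversed to 0.0082.

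Of the 3 ligands, Bmp4 alone was read at a level that could be tested. BMP4 is a BMP best known from embryonic patterning, including the induction of liver from gut endoderm. Bmp4 (ENSMUSG00000021835.15) lies on chromosome 14 at 46383520 to 46390669 (minus strand). Its CPM was 37.9 and 37.8 for the NC pair (431 and 523 counts), against 35.5 and 38.6 for the KO pair (468 and 522 counts). The NC values fell between the KO values. Its fold change on the log2 scale was -0.029 (SE 0.11, 95% interval -0.25 to 0.19, adjusted p = 0.863).

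The TPM of Bmp4 moved apart from its counts. It was 30.5 and 39.9 TPM in NC against 25.8 and 30.1 TPM in KO. Both KO libraries were below both NC libraries, but NC 1 and KO 2 nearly met. The deposited length of Bmp4 was 1558 and 1291 bases in NC and 1841 and 1664 bases in KO, without overlap. In output of this kind a gene's length is the mean over its transcripts, weighted by their estimated share. The 4 annotated Bmp4 transcripts are 2064, 1633, 517 and 258 bases long, the last 2 being retained-intron transcripts. The ratio of the longest to the shortest length across libraries was 1.43 for Bmp4, larger than for 91.5% of tested genes (median 1.06). On the log2(TPM + 1) scale the difference between groups was -0.32 and did not pass (limma, adjusted p = 0.198).

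**Figure D2:**
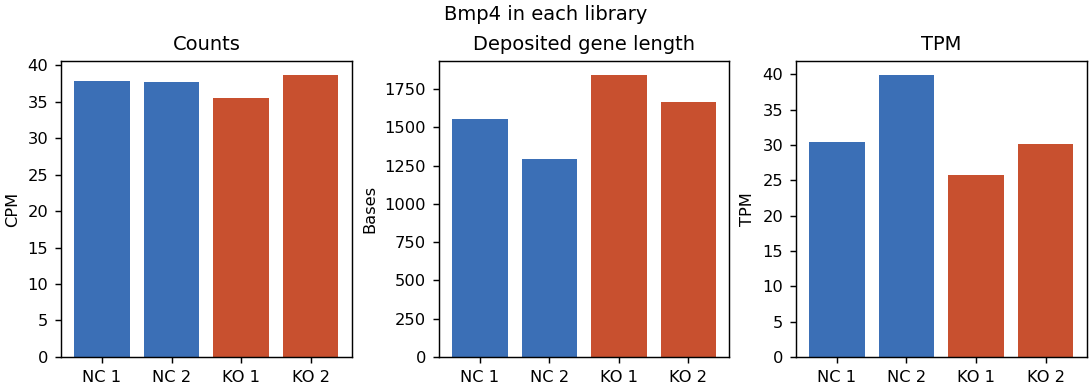
CPM, deposited gene length in bases and TPM of Bmp4 in each library (bars from 0; NC blue, KO red). CPM is level across the 4 libraries at 35.5 to 38.6, while length is greater and TPM smaller in both KO libraries. In TPM, NC 1 (30.5) and KO 2 (30.1) nearly meet.

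Bmp2 and Bmp6 were at the edge of detection. For Bmp2 (ENSMUSG00000027358.6; chromosome 2, 133552159 to 133562885, plus strand) the NC libraries held 3 and 1 counts and the KO libraries 0 and 1. For Bmp6 (ENSMUSG00000039004.6; chromosome 13, 38345107 to 38500302, plus strand) they held 1 and 1, and 0 and 1. All of these are at or under the 3-count limit, so no fold is given. Of the markers of liver endothelial cells, the usual source of both ligands in liver, Pecam1 alone was tested: Cdh5, Lyve1, Tek, Clec4g and Emcn had 0 counts in all libraries, and the 8 markers summed to between 0.380 and 1.06 CPM per library.

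**Figure D3:**
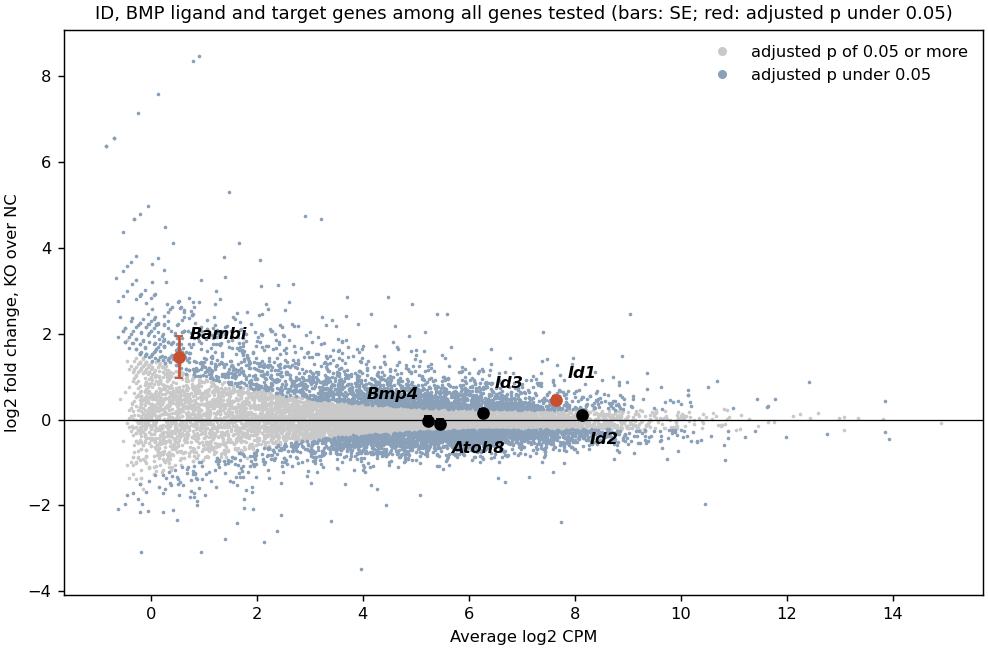
log2 fold change (KO over NC) against average log2 CPM for the 12510 genes tested, with genes past an adjusted p of 0.05 in blue-grey and the 6 tested genes described here as large points with SE bars (red where past 0.05). Id1 at 0.45 lies above the grey band of its expression range, Bambi at 1.45 near the band's upper edge, and Id2, Id3, Atoh8 and Bmp4 inside it.

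Promoter windows of 250 bases upstream of the RefSeq start (GRCm38.p6) were used for Id2, Id3, Id4, Atoh8, Bmp4 and Bmp6. The remaining genes described here were not searched, so the motif counts do not cover them. The windows of Id3 and Bmp6 lie wholly within GENCODE exons of their own gene, and 161 bases of the Id2 window do, because the annotated starts differ. They were searched on both strands for GGCGCC, a palindrome bound by SMAD1 and SMAD5, and for GTCT, the short SMAD4 box. GGCGCC was found once each in Id2 and Id4 and not in the other 4 windows, against 9.59% of 32851 windows overall. GTCT was found in Id2, Id3, Bmp4 and Bmp6, and in 82.9% of all windows. The E-box CANNTG was found in Id2, Atoh8, Bmp4 and Bmp6, and in 66.2% of all windows. The spaced pair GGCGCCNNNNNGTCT was in none of the 6. The 30 bases around GGCGCC are printed because this motif occurs in an abundant and in an undetected ID gene, with the motif in capitals, at chr12:25096306-25096335 (minus strand) for Id2 and chr13:48260956-48260985 (plus strand) for Id4.
Id2: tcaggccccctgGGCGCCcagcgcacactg
Id4: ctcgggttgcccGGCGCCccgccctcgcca

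Other genes of the pathway were read from lists of ligands, receptors, antagonists, SMADs, targets and ID partners, 86 genes in all. Of these 46 were tested and 40 were under the filter. Among the 46, 14 were higher and 6 lower past 0.05. Of all genes tested, 37.9% were called, 19.7% higher and 18.2% lower. The counts per list below stand beside these shares, and no list was tested as a set. The median log2 fold change of the 46 genes was 0.016, against -0.0037 over all genes tested. Of the 14 higher, 3 (Rgma, Tmprss6 and Ascl2) reached the filter level in both KO libraries and in neither NC library, so their calls carry the same limit as that of Bambi. The other 17 calls were of genes that reached it in both groups.

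Among the other BMP-type ligands, 2 of 11 were tested and neither passed. Bmp7 was at 50.4 TPM in NC and 53.0 in KO, and Bmp8b at 40.5 and 41.9 TPM, so both stood above Bmp4 in mean level. Their log2 fold changes were 0.011 (SE 0.09, adjusted p = 0.939) and -0.014 (SE 0.10, adjusted p = 0.930). Bmp8b overlaps exons of Gm17244 and Ppie on the other strand.

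Of 12 receptors and co-receptors found, 9 were tested, 2 were higher (Eng, and Rgma with the limit above) and 1 lower. Acvr1, the type I receptor ALK2, fell, with 24.0 ± 1.82 CPM in NC against 18.2 ± 0.90 in KO (mean ± SD, n = 2; log2 fold change -0.40, SE 0.13, adjusted p = 0.0188). Eng, the co-receptor endoglin, rose, with 1.35 ± 0.037 CPM in NC against 3.37 ± 0.060 in KO (log2 fold change 1.32, SE 0.35, adjusted p = 0.00352). Rgma, a BMP co-receptor, was at 8 and 10 counts in the NC libraries, 22 and 24 in the KO libraries, with a log2 fold change of 1.26 (adjusted p = 0.0286), and was kept by the filter through KO alone. Eng and Rgma overlap genes on the other strand (Fpgs and A730056A06Rik). The Acvr1 call was lost with DESeq2 (adjusted p = 0.0979), without NC 2 (0.154) and without KO 1 (0.0772). The Rgma call was lost with DESeq2 (0.179) and without any 1 library (0.114 to 0.163). The type I receptor Bmpr1a (-0.21, SE 0.10, adjusted p = 0.0938) and the type II receptor Bmpr2 (0.11, SE 0.12, adjusted p = 0.503) did not pass, and Bmpr1b had 0 counts.

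Secreted antagonists and modulators moved in both directions, with 2 higher and 2 lower among 7 tested of 17. Fstl3, which binds activins, rose most of these, with 8.59 ± 1.33 CPM in NC against 39.2 ± 4.29 in KO (mean ± SD, n = 2; log2 fold change 2.18, SE 0.15, adjusted p = 5.78e-12). Chrd, which encodes the BMP antagonist chordin, was at 11 and 14 counts in the NC libraries, 29 and 37 in the KO libraries (log2 fold change 1.31, SE 0.41, adjusted p = 0.0105), and its call was lost with DESeq2 (0.0881) and without KO 2 (0.133). Fst, the activin and BMP binder follistatin, fell, with 14.9 ± 1.11 CPM in NC against 7.87 ± 0.14 in KO (log2 fold change -0.91, SE 0.16, adjusted p = 8.00e-05). Twsg1, a chordin partner, fell less, with 91.2 ± 2.01 CPM in NC against 71.9 ± 6.63 in KO (log2 fold change -0.34, SE 0.10, adjusted p = 0.00606; 0.0695 without KO 1). Fstl3, Chrd and Fst overlap exons of Prss57, Thpo and Gm47040 on the other strand. The classical antagonists Nog, Grem1 and Chrdl1 had 0 counts in every library.

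None of the tested SMADs that carry the BMP signal passed. Of the inhibitors, 4 genes passed. The inhibitors Smurf2 (log2 fold change 0.020, SE 0.10, adjusted p = 0.893) and Ski (0.15, SE 0.10, adjusted p = 0.215) did not. Smad1, Smad5 and Smad4 had log2 fold changes of -0.030, -0.0047 and -0.023, with SE from 0.09 to 0.11, and Smad9 had 0 counts. Smad7, the general inhibitory SMAD, rose, with 68.8 ± 4.96 CPM in NC against 101.5 ± 0.57 in KO (mean ± SD, n = 2; log2 fold change 0.56, SE 0.09, adjusted p = 4.04e-05). Smad6, the inhibitory SMAD that acts mainly on BMP signals, went the other way, with 22.6 ± 0.17 CPM in NC against 13.1 ± 0.28 in KO (log2 fold change -0.79, SE 0.14, adjusted p = 6.10e-05). Skil, a SMAD corepressor, rose by 0.53 (SE 0.11, adjusted p = 0.000548), and Smurf1, a ubiquitin ligase for BMP SMADs, by 0.33 (SE 0.10, adjusted p = 0.00750; 0.191 without NC 1). In this list of 11, 3 were higher and 1 lower among 9 tested.

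Of 17 BMP-responsive genes outside the 9, 5 were tested and 12 were under the filter. Smad6 and Smad7, given above, are 2 of the 5. Dlx3, a homeobox factor, rose, with 1.91 ± 0.15 CPM in NC against 4.95 ± 0.19 in KO (mean ± SD, n = 2; log2 fold change 1.37, SE 0.30, adjusted p = 0.000583). Tmprss6, a liver protease that lowers hepcidin, was at 6 and 3 counts in the NC libraries, 17 and 11 in the KO libraries (log2 fold change 1.52, SE 0.64, adjusted p = 0.0471), was kept by the filter through KO alone, and its call was lost in 10 of 14 alternatives, including each fit without 1 library and the fit with the replicate number as a block (adjusted p = 0.0605). Runx2 did not pass (0.33, SE 0.14, adjusted p = 0.0600). Hepcidin itself was next to absent, with a single count of Hamp, in KO 2, and 0 of Hamp2. Msx1, Dlx5 and Snai2 also had 0 counts.

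The partners of ID proteins came last. Of 17 listed, 12 were tested, 4 were higher and 2 lower. The E protein genes Tcf3 and Tcf12 had log2 fold changes of -0.014 and -0.10 and did not pass, and Tcf4, singled out after its value was seen, was at 0.23 (SE 0.09, adjusted p = 0.0497). Tcf4 was the highest of the 3 per length, at 126 TPM in NC and 153 TPM in KO. Hes1, a Notch-responsive repressor, fell, with 36.4 ± 4.24 CPM in NC against 25.1 ± 0.12 in KO (mean ± SD, n = 2; log2 fold change -0.54, SE 0.12, adjusted p = 0.000683). Ets2, an ETS factor and no helix-loop-helix protein, fell too (log2 fold change -0.37, SE 0.10, adjusted p = 0.00502), and was at -0.24 without NC 2 (adjusted p = 0.148). Ascl2, a basic helix-loop-helix factor read at under 3 CPM in each library and kept by the filter through KO alone, was higher (log2 fold change 2.21, SE 0.60, adjusted p = 0.00198), and its call was lost without KO 2 (0.0682). Of the cell cycle inhibitors that E proteins can induce, Cdkn1a (p21) rose, with 357 ± 14.4 CPM in NC against 484 ± 26.3 in KO (log2 fold change 0.44, SE 0.09, adjusted p = 0.000472), and the other 3 tested did not pass. Cdkn1a overlaps exons of AC167363.2 on the other strand. In the filtered TPM fits the calls of Acvr1, Rgma, Chrd, Twsg1, Smurf1, Skil, Tmprss6, Hes1 and Ets2 were lost, and with unfiltered TPM no gene was called.

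**Figure D4:**
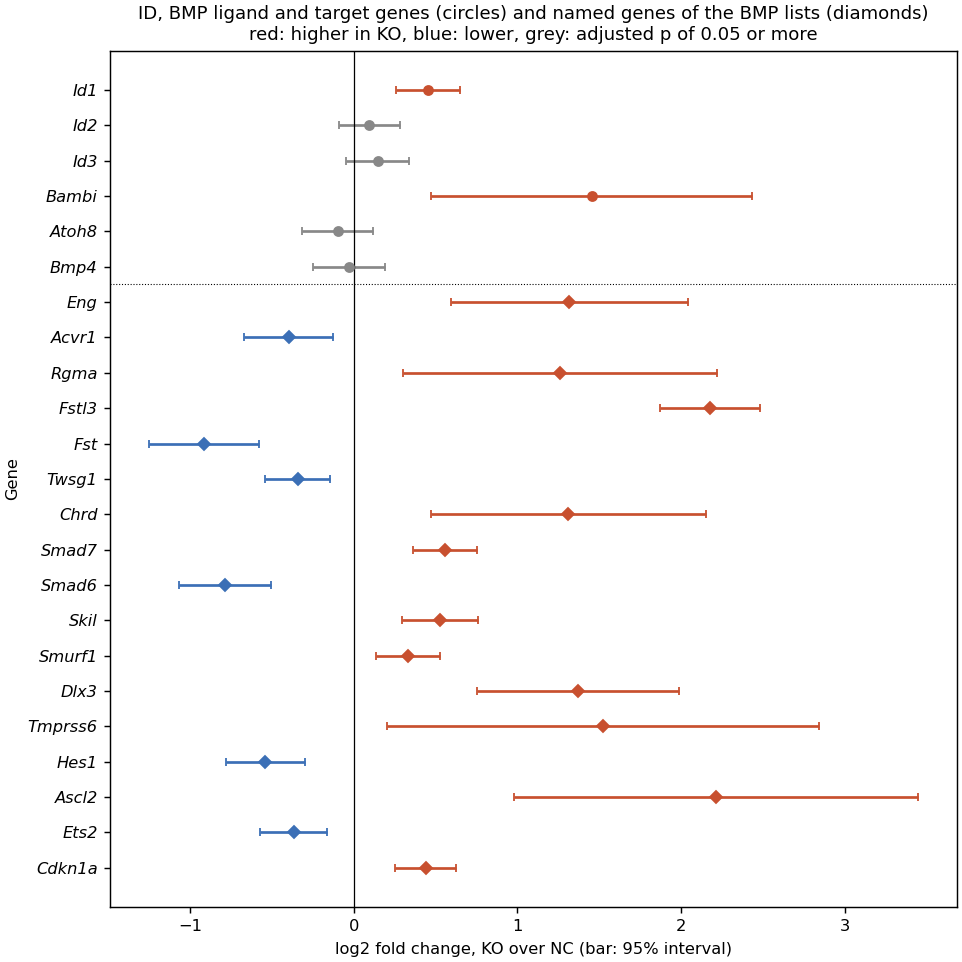
log2 fold change (KO over NC) with its 95% interval for the 6 tested genes described here (circles, above the dotted line) and the named genes of the BMP lists (diamonds), red where higher and blue where lower past an adjusted p of 0.05, grey otherwise. Id1 at 0.45 has a narrow interval and Bambi at 1.45 a wide one, and Smad6 lies opposite to Id1 and Smad7.

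Genes with the pattern closest to Id1 over the 4 libraries, by distance between mean-centred log2 CPM among 9944 genes, were Akap8l (0.012) and Cfap97 (0.034). Their log2 fold changes were 0.46 and 0.46. For Bambi they were Spo11 (0.145) and Vdr (0.163), at 1.27 and 1.36. The neighbours were picked for this likeness, so fold changes near those of Id1 and Bambi follow from the choice and give no support. This is a description over 4 libraries in 2 groups.

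Some markers of other cell types differed between the groups, and their part in these results was not tested. Of all genes tested, 19.7% were higher and 18.2% lower in KO, and the counts below stand beside these shares. Of 8 stellate cell and fibroblast markers, 4 were tested and 3 were higher in KO (Des, Pdgfra and Col1a1, the last kept by the filter through KO alone), with a summed level of 1485 and 1494 CPM in NC and 1640 and 1719 CPM in KO, nearly all of it Dcn. Lrat had 0 counts, and Acta2 and Pdgfrb had at most 2 in a library. Of 8 leukocyte markers, 2 were tested and Cd68 was higher, while Ptprc had at most 2 counts and Cd3e had 0. Of 6 cholangiocyte markers, 5 were tested, with 3 higher (Krt19, Krt7 and Epcam) and 1 lower (Sox9). The summed level of the 6 was 463 and 450 CPM in NC and 512 and 505 CPM in KO. Of the 10 hepatocyte and hepatoma markers, 8 were tested. Among them 2 were higher (Alb at 0.41 and Trf at 0.54 on the log2 scale) and 3 lower (Afp at -1.21, Hnf4a at -0.995 and Apoe at -0.93). The summed level of the 10 was 6028 and 5579 CPM in NC and 4985 and 4854 CPM in KO.

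**Figure D5:**
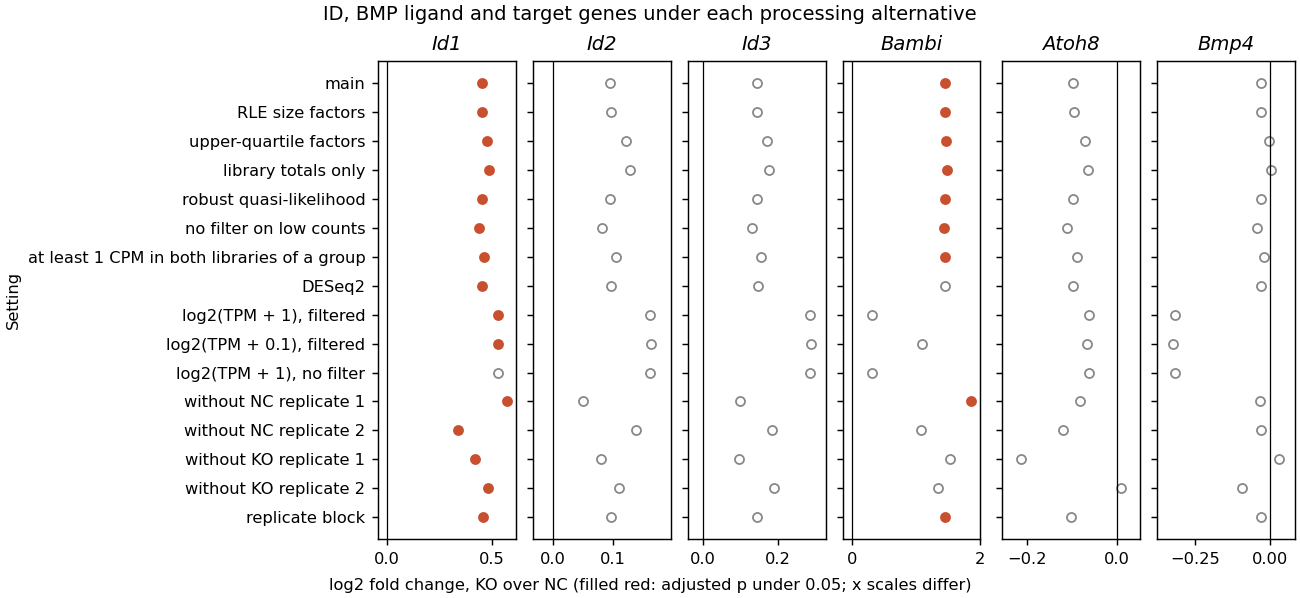
log2 fold change (KO over NC; own x scale in each panel) of the 6 tested genes under the main setting and 15 alternatives, filled red where the adjusted p was under 0.05. Id1 stays between 0.34 and 0.57 and is filled in all but the unfiltered TPM fit, Bambi is filled in 8 alternatives, and the other 4 are open throughout.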

How the data were processed

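RNA of 4 Hepa1-6 samples was made into libraries with a directional kit, per the labels' protocols. The annotation release and the strand setting of the authors' counting are not given in the sources used here. FastQC, STAR, RSEM and DESeq2, and the builds GRCm38 and mm10, are named without roles in the submitters' processing notes. The deposited expected counts are RSEM-type estimated counts per gene, not normalised, and the deposited TPM values are the authors' length-scaled levels, per the file headers. Annotation is GENCODE M21 (GRCm38), which matched 54809 of 54838 gene IDs without version.

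Expected counts were rounded to whole numbers, changing a library's total by at most 0.000188%. edgeR 4.0.16 (R 4.3.3) was used with filterByExpr (minimum count 10, minimum total 15), TMM, estimateDisp and the quasi-likelihood test, two-sided, with all 4 libraries and group as the only term. Standard errors come from the fitted weights and moderated dispersion. An exact permutation test of 2 against 2 cannot go below p = 0.333, so none is given. Alternatives used DESeq2 1.42.0 and limma 3.58.1 with an intensity trend on log2(TPM + 1) or log2(TPM + 0.1). On data simulated from these libraries, 12339 genes were in the fit. Of genes changed by 0.5, 1 and 2 (log2), 65.2%, 91.0% and 100% were called with the right sign. Of 12139 unchanged genes, 8 were called. The simulation gave every gene the same dispersion and changed 66 or 67 genes per size, each with a mean of at least 1 CPM. Far more genes were called in the data, and dispersion there varies by gene, so these rates need not hold for them.

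Genes named are the 9, Acvr2a, up to 4 called genes per list with the lowest p, and the 2 nearest patterns per called gene. Nearest means the smallest Euclidean distance of mean-centred log2 CPM, at an average log2 CPM of at least 2, with predicted genes left out. Bmp7, Bmp8b, Bmpr1a, Bmpr2, Smurf2, Ski, Runx2, the SMADs, E proteins and silent genes were added after their values were seen. The 9 genes and all lists were chosen with earlier results of these data known. Some genes that meet the naming rule are not reported here. The co-receptor Hjv is listed under its older symbol Hfe2. No promoter window of Id1, Bmp2 or Bambi was searched for motifs. Id1 and Bmp2 had no entry among the RefSeq promoters used, and Bambi was left out of the search.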

Additional observations from a re-analysis of the deposited data

How the results depend on the processing

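Of the 6 genes tested, Id1 kept its call with DESeq2 and in each filtered TPM fit, and lost it with unfiltered TPM. Bambi, kept by the filter through KO alone and not counted as support, lost its call in all of these fits. Id2, Id3, Atoh8 and Bmp4 were called in none of them. In the main fit 37.9% of the 12510 genes tested were called, and the counts over all genes follow. The count over all genes, 4741, was 3217 with DESeq2, 2158 on log2(TPM + 1), 2099 on log2(TPM + 0.1) and 0 with unfiltered TPM (4506 at an unadjusted p under 0.05), and 3507 to 4488 with a library left out. In the filtered TPM fits 1467 of 2158 and 1427 of 2099 calls were higher, against 2459 of 4741. The 20 calls in the other BMP lists became 14 with DESeq2, 9 in each filtered TPM fit, 0 with unfiltered TPM, and 14 to 19 with a library left out. The cause of these differences was not tested.

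The log2 fold change of Bmp4 reversed to 0.0031 with library totals only and to 0.030 without KO 1 (lowest with a library left out, -0.093), and that of Atoh8 to 0.0082 without KO 2 (lowest, -0.21). Id1, Id2, Id3 and Bambi were higher in KO under every alternative run. Over the count size factors the median of all genes moved to at most 0.028; it was 0.037 without a filter on counts and 0.037 to 0.070 in the TPM fits.

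The replicate numbers in the titles gave no sign of pairing: deviations of same-numbered libraries had a correlation of -0.012 across 12510 genes. With the replicate block, Id1 and Bambi (the latter with the limit above), 20 genes of the other lists and 5006 of 12510 genes in all were called.

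Depth limits Bambi, Bmp2, Bmp6 and Id4 most.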
